A study of Arabidopsis thaliana with 18 samples.

Results

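SUFE2 (AT1G67810, "sulfur E2") is an Arabidopsis thaliana gene of iron-sulfur cluster synthesis, and its transcript is described here in roots of 3 genotypes grown with and without iron. It was taken from the 1 probe set, 245193_at, that the platform annotation assigns to SUFE2 alone. It is 1 gene of the 13356 that had a probe set of their own among 22746 probe sets. Its locus code places it on chromosome 1. Which exons or untranslated regions the probes match is not known here.

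Iron-sulfur clusters are small cofactors of iron and inorganic sulfide that carry electrons or bind substrates in enzymes of photosynthesis, respiration and sulfur and nitrogen assimilation. In plants they are built by the SUF machinery of plastids and the ISC machinery of mitochondria, and the CIA machinery places them in cytosolic and nuclear proteins. In the SUF pathway the cysteine desulfurase NFS2 takes sulfur from cysteine, and SUFE proteins activate it and receive the sulfur. Arabidopsis has several SUFE proteins, of which SUFE2 is known mainly for its expression in pollen.

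All plants were in the Col-0 background. The groups were the Col-0 wild type, a line labelled as overexpressing cucumber CsUBC13 (CsUBC13-OE) and a mutant labelled ubc13-/- (ubc13A). UBC13 enzymes take part in attaching ubiquitin to proteins. At 10 days of age, seedlings went to ES medium that contained the iron chelate FeEDTA or lacked it, and tissue was frozen 3 days later. Each of the 6 groups had 3 biological replicates, 18 single-colour Affymetrix arrays in all, and their number limits the precision. The labels do not state the transgene's promoter, the mutant allele or whether plants were pooled.

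Median signals ran from 189.7 to 210.95 over the arrays, which had been scaled by the authors. The Arabidopsis UBC13A gene (UBC35) shares its probe set with UBC36. The mean signal of that shared probe set was 3782 in Col-0 and 2879 in ubc13A with Fe, and 3615 and 2725 without Fe. The log2 difference was -0.40 at either supply and was not called by limma (adjusted p = 0.393 and 0.308), so the genotype labels could not be checked on it. Of 12 listed root markers 2 were measured, and both were bright: PYK10, a root beta-glucosidase, had group means from 14413 to 20679, and EXPA7, a root hair expansin, from 514 to 726. Without Fe, 970 of 22746 probe sets were called in Col-0 (4.26%), 984 in CsUBC13-OE (4.33%) and 847 in ubc13A (3.72%) by limma at an adjusted p under 0.05. Of these calls 51.9%, 51.2% and 56.2% were higher without Fe, against 63.2%, 59.8% and 68.6% after each array was centred on its median.

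SUFE2 signal was higher without Fe than with Fe in roots of each genotype. In Col-0 it read 225.8, 157.4 and 137.2 on the arrays with Fe, replicates 1 to 3. Without Fe the Col-0 arrays read 558.0, 390.5 and 390.5. The lowest Col-0 array without Fe was thus well above the highest with Fe, and the groups did not overlap. The group means were 173.5 ± 46.4 with Fe and 446.3 ± 96.7 without (SD, n = 3).

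In CsUBC13-OE the arrays with Fe read 231.9, 166.0 and 106.6, a mean of 168.2 ± 62.7. Without Fe they read 480.0, 446.1 and 332.9, a mean of 419.7 ± 77.0. These groups did not overlap either, though the CsUBC13-OE arrays with Fe were the most scattered of the 6 groups, with an SD of 37.3% of the mean.

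In ubc13A the arrays with Fe read 166.7, 161.5 and 124.9, a mean of 151.0 ± 22.8. Without Fe they read 368.3, 346.4 and 346.8, a mean of 353.8 ± 12.5. The ubc13A arrays without Fe were the least scattered of the 6 groups, with an SD of 3.54% of the mean, and all lay above those with Fe.

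**Figure D1:**
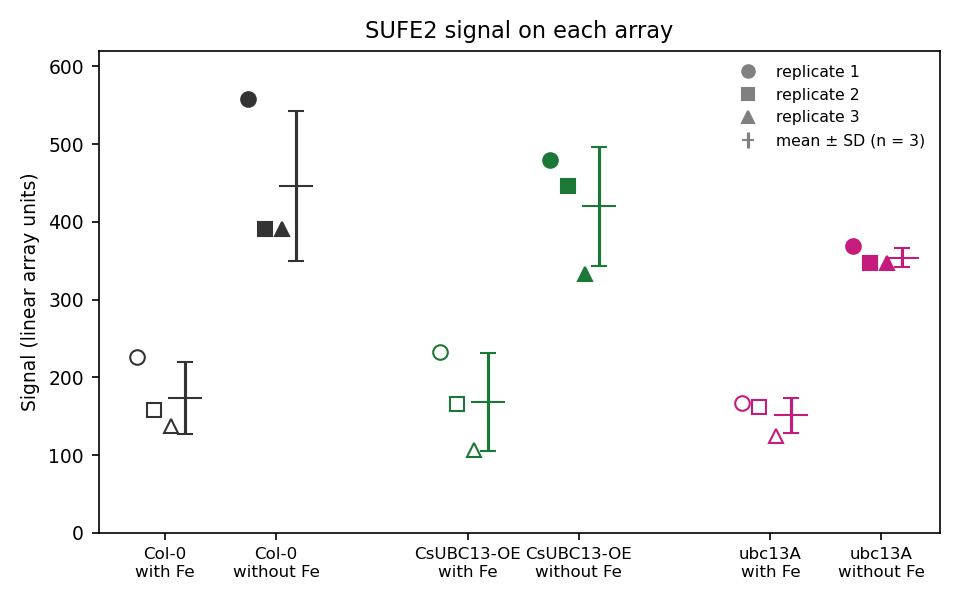
SUFE2 signal in linear array units (vertical axis) on each of the 18 arrays, by genotype and Fe supply. Open symbols are arrays with Fe and filled ones without, the symbol gives the replicate number, and the bars beside them are the mean ± SD of 3 arrays. Every array without Fe, at 332.9 or above, stood above every array with Fe, at 231.9 or below.

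SUFE2 was chosen by its own signals in these 6 groups, so its levels and differences are a description and carry no p-value. On the scale of log2(signal + 16), the difference without Fe minus with Fe was 1.29 in Col-0 (SE 0.24), a 2.45-fold difference. It was 1.28 in CsUBC13-OE and 1.16 in ubc13A (SE 0.24 each), or 2.44-fold and 2.23-fold. The ratios of the plain mean signals were 2.57, 2.50 and 2.34. In RNA of whole roots, more cells that express the gene and more transcript per cell cannot be told apart.

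Over all probe sets the median difference without Fe was -0.04 in each genotype. A difference at least as large as that of SUFE2 was seen in 170 probe sets in Col-0 (0.747%), 188 in CsUBC13-OE (0.827%) and 196 in ubc13A (0.862%), SUFE2 included. Groups that did not overlap, with the higher one without Fe, were found for 9.1%, 8.19% and 9.04% of probe sets in the 3 genotypes. In 452 probe sets (1.99%), SUFE2 among them, the dimmest of all arrays without Fe exceeded the brightest of all with Fe. Nothing is read from these shares about SUFE2, since the same values led to its choice.

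**Figure D2:**
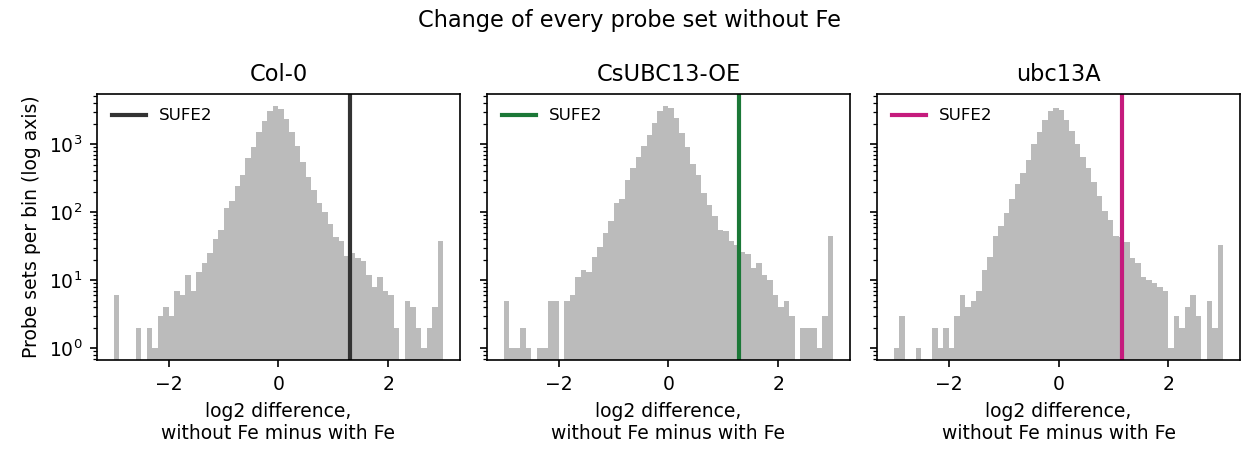
Number of probe sets (vertical axis, log scale) by log2 difference without Fe minus with Fe (horizontal axis, bins of 0.1, with differences beyond 3 in either direction placed in the end bins) in each genotype. The coloured line marks SUFE2, at 1.29 in Col-0, 1.28 in CsUBC13-OE and 1.16 in ubc13A, in the upper tail of each distribution.

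Ordered by mean signal, the groups ran from Col-0 without Fe (446.3) through CsUBC13-OE without Fe (419.7) and ubc13A without Fe (353.8) to Col-0 (173.5), CsUBC13-OE (168.2) and ubc13A (151.0) with Fe. The genotypes stood in the same order at both supplies. In this order 1 pair of neighbours did not overlap, ubc13A without Fe and Col-0 with Fe, and the other neighbours did.

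The genotype differences in SUFE2 were small beside the Fe difference. With Fe, the log2 difference from Col-0 was -0.07 in CsUBC13-OE and -0.16 in ubc13A (SE 0.24 each), and the arrays overlapped in both comparisons. Without Fe, the difference of CsUBC13-OE was -0.08 (SE 0.24), again with overlap. In ubc13A without Fe it was -0.30 (SE 0.24), with all 3 arrays, at 368.3 or below, under the lowest Col-0 array, at 390.5. Groups that did not overlap, with ubc13A lower, were found for 7.42% of probe sets in that comparison. Without the brightest Col-0 array, replicate 1, the difference was -0.14 (SE 0.26).

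The Fe difference of CsUBC13-OE differed from that of Col-0 by -0.01 on the log2 scale (SE 0.34). In ubc13A it differed from that of Col-0 by -0.14 (SE 0.34). Leaving out 1 array moved the first value between -0.27 and 0.23 and the second between -0.33 and 0.03. With 3 arrays a group, differences of this size were not resolved.

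Same-numbered arrays of Col-0 with and without Fe deviated together over all probe sets, with correlations of 0.26, 0.11 and 0.15. Taken within a number, SUFE2 signal in Col-0 was 2.47, 2.48 and 2.85 times as high without Fe. Fitting these 6 arrays with the number as a blocking term gave the Col-0 difference an SE of 0.10, against 0.22 without that term.

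Markers of other tissues were set beside this pattern. Pollen, where SUFE2 is best known, had 1 of 11 listed markers measured, the actin gene ACT12, and its signal ran from 1.3 to 20.5 over all arrays. ACT12 was thus close to the bottom of the scale in each group, and it was called in no Fe response (adjusted p from 0.273 to 0.767). Its ubc13A difference passed in 1 of 13 alternative fits (adjusted p = 0.0419). Of 10 listed genes of green tissue 4 were measured. Their summed signal ran from 3291 to 4078 with Fe and from 2436 to 2746 without in Col-0, from 3778 to 4017 and 1911 to 2637 in CsUBC13-OE, and from 2232 to 3140 and 1857 to 2544 in ubc13A. Group means ran from 663 to 1274 for RCA (Rubisco activase) and from 832 to 1539 for LHCB4.1 (a light-harvesting protein). They ran from 486 to 871 for PSAE-1 and from 202 to 273 for PRK. Those of the root marker EXPA7 ran from 514 to 726, and array medians were at most 210.95. How much green tissue the samples held was not tested. RCA and LHCB4.1 fell without Fe in CsUBC13-OE by log2 differences of -0.94 and -0.89 (adjusted p = 0.0026 and 0.0015). PSAE-1 (-0.63) and PRK (-0.33) did not pass there. None of the 4 passed in Col-0 or ubc13A in the main fit. RCA in Col-0 came closest (-0.59, adjusted p = 0.0616) and passed in 3 of 14 alternative fits (lowest adjusted p = 0.0187). The part of these 4 genes in the SUFE2 difference was not tested.

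The other plastid SUF genes did not share the SUFE2 pattern to a degree that passed the test. Of 16 listed besides SUFE2, 3 were measured by a probe set of their own, and 0 of 3 were called in any of the 3 Fe responses. CPNIFS is the plastid cysteine desulfurase that SUFE proteins activate, also named NFS2. Its mean signal was 242.3 with Fe and 284.9 without in Col-0, 290.4 and 309.3 in CsUBC13-OE, and 268.2 and 306.2 in ubc13A. The supplies did not overlap in Col-0 and ubc13A and overlapped in CsUBC13-OE. Groups apart in this direction, higher without Fe, were found for 9.1% of all probe sets in Col-0 and 9.04% in ubc13A. The log2 differences of CPNIFS were 0.21, 0.09 and 0.18 (SE 0.12 each, adjusted p = 0.462, 0.804 and 0.513). HCF101, which carries clusters to plastid proteins such as photosystem I, stood at -0.19, -0.44 and -0.73 (SE 0.25 each, smallest adjusted p = 0.143, in ubc13A). Its supplies overlapped in Col-0 and CsUBC13-OE. In ubc13A it was lower without Fe with no overlap, as were 12.8% of all probe sets. AT1G60990 lay between -0.14 and 0.01 and overlapped in each genotype. SUFE1 and SUFE3, the other SUFE genes of the list, were assigned no separate probe set and were not analysed here.

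Over the plastid, mitochondrial and cytosolic assembly lists together, 12 of 52 genes besides SUFE2 were measured. In Col-0 and in CsUBC13-OE 1 of the 12 was called higher without Fe and 0 lower, and in ubc13A 0 of 12 were called. Over all probe sets 2.21% were called higher and 2.05% lower in Col-0, 2.22% and 2.11% in CsUBC13-OE, and 2.09% and 1.63% in ubc13A. Their median log2 difference was 0.03 in Col-0, 0.07 in CsUBC13-OE and 0.01 in ubc13A, beside -0.04 over all probe sets.

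The gene called was ISU1, which encodes the mitochondrial scaffold on which clusters are built. In Col-0 its arrays read 1856, 1946 and 1960 with Fe and 2849, 2471 and 2804 without. In CsUBC13-OE they read 2069, 1941 and 1894 with Fe and 2964, 2531 and 2646 without. In ubc13A they read 1712, 2001 and 1712 with Fe and 2504, 2015 and 2047 without. No genotype overlapped between supplies, although in ubc13A the closest arrays nearly met. Groups apart in this direction, higher without Fe, were found for 9.1% of all probe sets in Col-0, 8.19% in CsUBC13-OE and 9.04% in ubc13A. ISU1 rose by 0.49 on the log2 scale in Col-0 (SE 0.11, adjusted p = 0.0192) and by 0.46 in CsUBC13-OE (adjusted p = 0.0286), and its difference of 0.27 in ubc13A did not pass (adjusted p = 0.233). The response in ubc13A was not shown to differ from that in Col-0 (-0.22, SE 0.16, adjusted p = 0.935).

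The ISU1 calls were fragile. In Col-0 the call ended without any 1 array other than replicate 2 without Fe (adjusted p from 0.0534 to 0.0818), in a fit of the 6 Col-0 arrays alone (0.0953) and with the replicate block added to it (0.14). In CsUBC13-OE it ended without replicate 2 or 3 with Fe and without replicate 1 or 3 without Fe (0.0764 to 0.133), and in the 6 CsUBC13-OE arrays alone (0.16).

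The remaining mitochondrial genes, AT5G61220, AT4G32360, AT5G06410, AT2G16710, AT5G03905 and AT4G12130, lay between -0.21 and 0.21 in all 3 Fe responses, and none was called. Of the cytosolic list, AT3G02280 (TAH18) stood at 0.04 in Col-0, 0.04 in CsUBC13-OE and -0.29 in ubc13A. AT3G09380 stood at -0.35, 0.17 and 0.07, with mean signals of 24.1 or less, for which no background level is known. Neither was called.

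Genes whose proteins carry iron-sulfur clusters, or that were listed with them, went the other way where they were called. Of 42 listed, 7 were measured. Without Fe, 3 of 7 were called lower in Col-0, 3 of 7 in CsUBC13-OE and 2 of 7 in ubc13A, and 0 were called higher in any. Over all probe sets 2.05%, 2.11% and 1.63% were called lower in the same order of genotypes. The list's median was -0.67 in Col-0, -0.53 in CsUBC13-OE and -0.23 in ubc13A, beside -0.04 over all probe sets. With the replicate block 1 was called in Col-0, where same-numbered arrays were taken as pairs from their correlations. The 4 measured genes of green tissue also stood lower without Fe, except PRK in ubc13A (0.10), with median log2 differences of -0.38, -0.76 and -0.29 in the same order of genotypes. RCA did not overlap between supplies in any genotype, LHCB4.1 did not in Col-0 and CsUBC13-OE, and PSAE-1 did not in Col-0. Groups apart in this direction, lower without Fe, were found for 12.9%, 11.6% and 12.8% of all probe sets. The part of green tissue in the iron-sulfur protein genes was not tested.

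SIR encodes sulfite reductase, a plastid enzyme of sulfate assimilation that holds siroheme and an iron-sulfur cluster. In Col-0 its arrays read 3745, 3574 and 3852 with Fe and 1723, 1669 and 1484 without. In CsUBC13-OE they read 3638, 4292 and 3698 with Fe and 1552, 1848 and 1415 without. In ubc13A they read 2947, 3418 and 2613 with Fe and 2121, 1895 and 1912 without. The groups were apart in each genotype, by the narrowest margin in ubc13A. Groups apart in this direction, lower without Fe, were found for 12.9% of all probe sets in Col-0, 11.6% in CsUBC13-OE and 12.8% in ubc13A. SIR fell by 1.19 on the log2 scale in Col-0 (SE 0.13, adjusted p = 2.07e-05), by 1.27 in CsUBC13-OE (9.69e-06) and by 0.59 in ubc13A (0.0138). The smaller fall in ubc13A was not shown to differ from that in Col-0 (0.60, SE 0.18, adjusted p = 0.729). The ubc13A call ended without replicate 2 with Fe and without replicate 2 or 3 without Fe (adjusted p from 0.0563 to 0.0617), and in the 6 ubc13A arrays alone (0.121).

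AT3G23940 is named by its locus in the annotation. Its Col-0 arrays read 2029, 2308 and 1979 with Fe and 1273, 1214 and 1249 without. The CsUBC13-OE arrays read 1997, 2313 and 2144 with Fe and 1413, 1339 and 1340 without. The ubc13A arrays read 2334, 1938 and 2421 with Fe and 1435, 1637 and 1715 without. No groups overlapped. Groups apart in this direction, lower without Fe, were found for 12.9%, 11.6% and 12.8% of all probe sets in the same order of genotypes. AT3G23940 fell by 0.75 in Col-0 (SE 0.11, adjusted p = 0.000549), by 0.65 in CsUBC13-OE (0.0019) and by 0.48 in ubc13A (0.0232). The Col-0 call ended with the replicate block (adjusted p = 0.0704), and the CsUBC13-OE call in the 6 arrays of that genotype alone (0.0508). The ubc13A call ended without replicate 1 or 3 with Fe and without replicate 1 or 2 without Fe (0.0591 to 0.105), and in the 6 arrays alone (0.2).

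SDH2-2 and SDH2-1 encode the iron-sulfur subunit of succinate dehydrogenase, complex II of the respiratory chain. SDH2-2 arrays of Col-0 read 1758, 1503 and 1757 with Fe and 1201, 704.5 and 880.7 without. Those of CsUBC13-OE read 1645, 1884 and 1253 with Fe and 1101, 849.7 and 817.4 without. Those of ubc13A read 1688, 1269 and 1477 with Fe and 1136, 1012 and 1164 without. All 3 genotypes were lower without Fe with no overlap, a separation found for 12.9%, 11.6% and 12.8% of all probe sets in the same order of genotypes. SDH2-2 fell by 0.87 in Col-0 (SE 0.19, adjusted p = 0.0157) and by 0.77 in CsUBC13-OE (0.0323), while -0.41 in ubc13A did not pass (0.303). In Col-0 the call ended without replicate 1 or 3 with Fe, without replicate 2 or 3 without Fe (0.0618 to 0.0811), in the 6 arrays alone (0.0989) and with the replicate block (0.0851). In CsUBC13-OE it ended without replicate 1 or 2 with Fe, without replicate 2 or 3 without Fe (0.0869 to 0.146), after centring on the median (0.0614) and in the 6 arrays alone (0.153).

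SDH2-1, from the brighter of its probe sets, stood at -0.67, -0.53 and -0.23, none past the test (smallest adjusted p = 0.0829, in Col-0). The Col-0 fall of SDH2-1 passed in 4 of 14 alternative fits (lowest adjusted p = 0.0237). Its other probe set averaged a signal of 3.57 and was not used. THIC, an enzyme of thiamine synthesis, stood at -0.12, -0.26 and -0.17, and AT2G04700 at 0.01, 0.14 and -0.20. SIRB, the ferrochelatase that puts iron into siroheme, the cofactor of sulfite reductase, stood at 0.14, 0.16 and 0.03. None of these was called in the main fit. SIRB was higher without Fe with no overlap in Col-0 and CsUBC13-OE, as were 9.1% and 8.19% of all probe sets. SDH2-1 was lower with no overlap in each genotype, as were 12.9%, 11.6% and 12.8% of all probe sets. THIC and AT2G04700 overlapped in each.

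**Figure D3:**
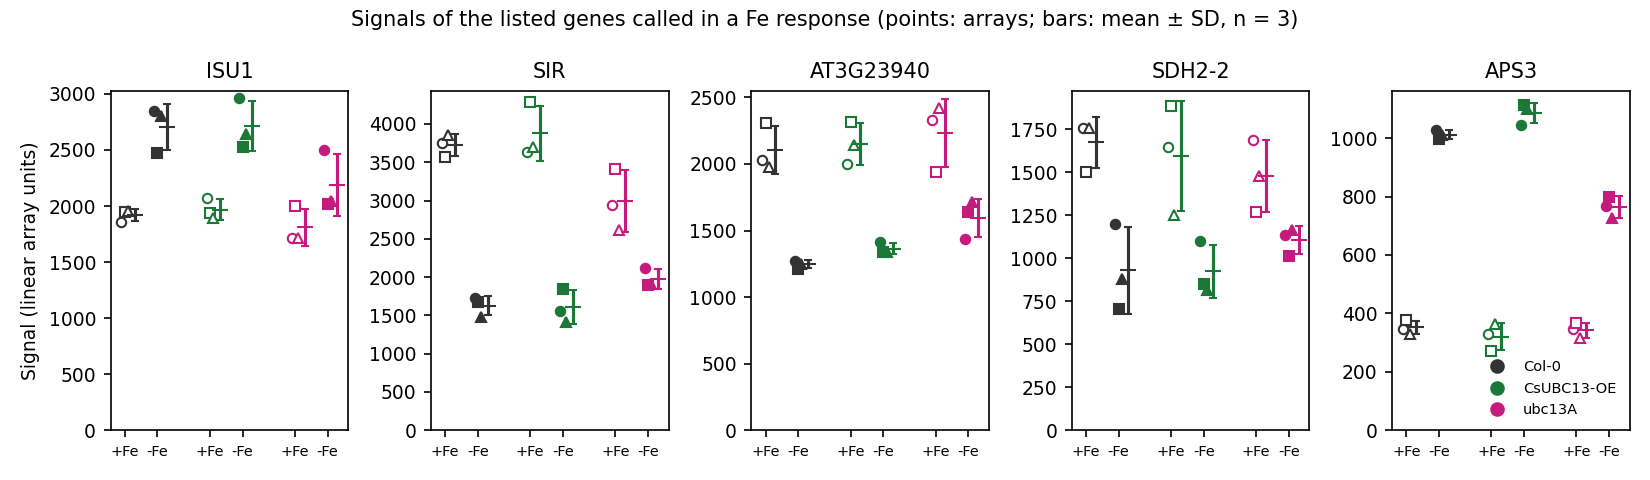
Signals in linear array units (vertical axes, from 0) on each array with Fe (+Fe, open) and without (-Fe, filled) for the listed genes ISU1, SIR, AT3G23940, SDH2-2 and APS3, with the mean ± SD of 3 arrays. ISU1 and APS3 stood higher without Fe and the other 3 genes lower, in each genotype without overlap. Such separation was found for 8.19% to 9.1% of all probe sets upward and 11.6% to 12.9% downward.

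Of the genes of sulfate assimilation and cysteine synthesis, which provide the sulfur that SUFE proteins handle, 2 of 21 were measured. APS3 encodes an ATP sulfurylase, the enzyme that activates sulfate. APS3 arrays of Col-0 read 347.7, 376.9 and 330.8 with Fe and 1027, 997.4 and 1013 without. Those of CsUBC13-OE read 328.6, 270.9 and 362.5 with Fe and 1047, 1113 and 1099 without. Those of ubc13A read 345.2, 366.3 and 314.3 with Fe and 767.5, 798.7 and 726.9 without. The groups stood far apart in all 3 genotypes, with the ubc13A arrays without Fe below those of Col-0. Groups apart, higher without Fe, were found for 9.1%, 8.19% and 9.04% of all probe sets in the same order of genotypes. Without Fe, ubc13A stood below Col-0 with no overlap for 7.42%. APS3 rose by 1.49 in Col-0 (SE 0.11, adjusted p = 3.82e-07), by 1.72 in CsUBC13-OE (6.99e-08) and by 1.13 in ubc13A (8.48e-06). Without Fe, ubc13A differed from Col-0 in APS3 by -0.40 (SE 0.11), which did not pass the test (adjusted p = 0.172). APS4, another ATP sulfurylase, stood at 0.02, -0.05 and -0.09 and was not called.

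Of the other lists, NAD synthesis was included because SUFE3 is also the quinolinate synthase of that pathway. Of its 5 genes 3 were measured and 0 called, QPT (quinolinate phosphoribosyltransferase) coming closest at 0.48 in CsUBC13-OE (adjusted p = 0.0759). QPT passed there in 5 of 14 alternative fits (lowest adjusted p = 0.0286). Of 19 listed genes of organelle iron handling 2 were measured, AT1G07030 and AT2G30160, between -0.14 and 0.23, and 0 were called. Between CsUBC13-OE and Col-0, 0.0132% of all probe sets were called at either supply. Between ubc13A and Col-0 it was 0.0132% with Fe and 0.0484% without. No listed gene was called in these comparisons (smallest adjusted p = 0.172, for APS3), nor in the differences between Fe responses (smallest adjusted p = 0.729, for SIR), where 0.0044% and 0% of probe sets were called.

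**Figure D4:**
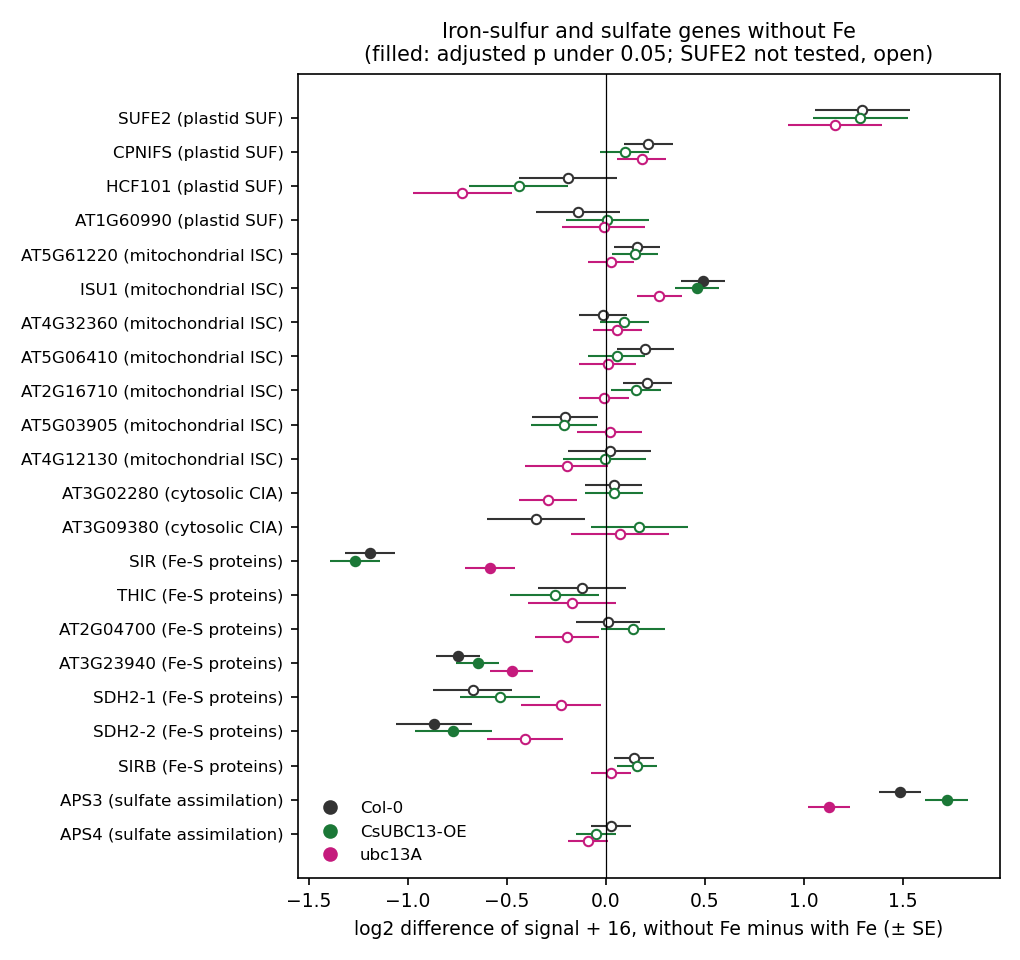
Log2 difference of signal + 16, without Fe minus with Fe, with its SE (horizontal axis), for SUFE2 and the measured genes of the assembly, iron-sulfur protein and sulfate lists in the 3 genotypes. Filled points passed an adjusted p of 0.05 and SUFE2 was not tested. SUFE2 and APS3 stand above 1, and SIR, AT3G23940 and SDH2-2 lie on the other side of 0.

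The genes most like SUFE2 were ranked by Pearson's r of log2(signal + 16) over the 18 arrays, among 8761 genes with a mean signal of at least 50. The arrays share their Fe supply, so any gene with a Fe difference in all genotypes correlates with SUFE2. Of these genes 75 had an r over 0.9, and the median r was -0.13. The highest r was that of AT3G27880, at 0.975. Its mean signal was 456.2 ± 62.9 with Fe and 1206 ± 267 without in Col-0, 401.7 ± 100.9 and 1142 ± 212 in CsUBC13-OE, and 394.2 ± 37.8 and 950.3 ± 79.7 in ubc13A (SD, n = 3). The log2 differences of AT3G27880, at 1.36, 1.48 and 1.24, were close to those of SUFE2 at 1.29, 1.28 and 1.16.

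AT5G24760 (r = 0.960), CCS (0.960), AT5G40590 (0.958) and AT1G51830 (0.953) came next. CCS, the copper chaperone of superoxide dismutase, had a smaller difference without Fe, at 0.71 in Col-0, and AT5G40590 a larger one, at 2.04. They were followed by AT5G66120 (0.948), UGT72E1 (0.946), PGL34 (0.945), AT1G01800 (0.945) and AT1G28680 (0.944). UGT72E1 is a UDP-glycosyltransferase, at 2.07 in Col-0, and PGL34 a plastoglobulin, a protein of plastid lipid droplets, at 1.17. Over Spearman's rho 4 of these 10 genes remained among the top 10, and over the 6 group means 2.

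The most opposite genes were AT1G36060 (r = -0.955), AT1G44835 (-0.932), AT3G43670 (-0.931), AT3G49160 (-0.927) and AT2G44360 (-0.916). In Col-0 their differences without Fe ran from -2.08 (AT3G49160) to -0.50 (AT1G44835). Among the listed genes APS3 had an r of 0.910 with SUFE2 and ISU1 one of 0.852. AT3G23940 (-0.899) and SIR (-0.842) lay at the other end, and the partner enzyme CPNIFS stood at 0.566.

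**Figure D5:**
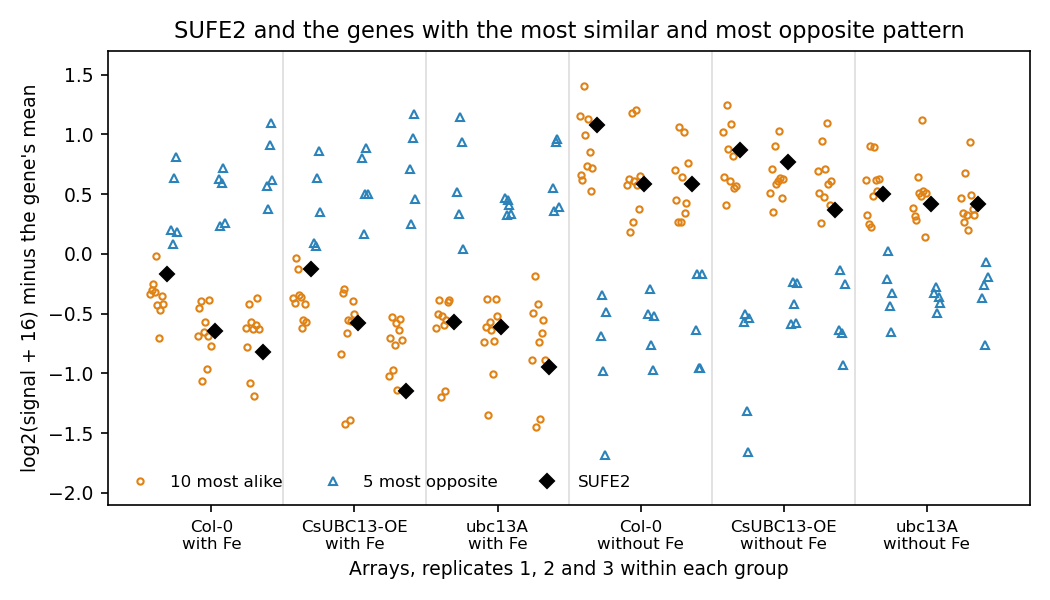
Log2(signal + 16) minus each gene's own mean (vertical axis) on the 18 arrays (horizontal axis), for SUFE2 (black diamonds), the 10 genes with the highest r with it (orange circles) and the 5 with the lowest (blue triangles). SUFE2 and the similar genes lie below 0 with Fe and above 0 without, and the opposite genes lie above 0 with Fe and mostly below 0 without.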

How the data were processed

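Root RNA was measured on 18 single-colour Affymetrix arrays. The deposited values are linear signal intensities, 1 per probe set and array. Their trimmed means were nearly equal, so the authors had scaled them. The summarising software was not given in the sources used here. No detection calls were used. Of 22810 probe sets 64 controls were set aside. By the platform annotation 13513 of the other 22746 named 1 gene, 503 several and 8730 none. RefSeq symbols (TAIR10.1) matched 13436 of them by Entrez number.

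Group means of log2(signal + 16), which understates differences of dim genes, were estimated from the 18 arrays together by limma 3.58.1 (R 4.3.3) on 12 residual degrees of freedom. Adjusted p-values are from this fit unless another setting is named with them. They are by the Benjamini-Hochberg method over all probe sets of the fit. A gene with several probe sets was represented by the brightest. The fit was tested on simulated data. Figures used Python 3.11.15 and matplotlib 3.10.9.

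SUFE2, the lists and the tests were chosen with earlier results of these data known. Named genes were SUFE2, every measured member of the plastid SUF list, called members of other lists (otherwise up to 4 of the brightest), and the 10 most alike and 5 most opposite genes. Other listed genes were named for completeness, after their values were seen. Same-numbered arrays were taken as pairs where all 3 correlations of their deviations from group means exceeded 0.1. This held for the Col-0 Fe response and for CsUBC13-OE against Col-0 without Fe (0.30, 0.20 and 0.11), from the data and not the labels. Promoter motifs were planned and not analysed here.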

Additional observations from a re-analysis of the deposited data

How the results depend on the processing

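Quantile normalization, centring on the median, pseudocounts of 1 and 64, leaving out dim probe sets, eBayes with trend and robust, fits of the compared arrays alone and the replicate block left the SUFE2 difference without Fe between 1.11 and 1.37 in Col-0, 1.08 and 1.37 in CsUBC13-OE and 0.96 and 1.23 in ubc13A. Leaving out 1 array gave 1.13 to 1.48, 1.02 to 1.53 and 1.04 to 1.23. The differences of CsUBC13-OE from Col-0 took either sign when 1 array was left out, from -0.32 to 0.19 with Fe and -0.18 to 0.08 without. That of ubc13A ran from -0.30 to 0.03 with Fe and from -0.39 to -0.14 without.

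Counts of listed genes moved more in fits that used fewer arrays, and the cause was not tested further. Assembly genes called were 0 in Col-0 and 0 in CsUBC13-OE, against 1 each, both in fits of the 6 arrays alone and with the replicate block. Iron-sulfur protein genes called with the replicate block were 1 for Col-0, 1 for CsUBC13-OE and 0 for ubc13A (main values 3, 3 and 2). In the arrays alone without the block they were 2 in Col-0, 1 in CsUBC13-OE and 0 in ubc13A. The block also ended the CsUBC13-OE calls of ISU1 (adjusted p = 0.266), AT3G23940 (0.174) and SDH2-2 (0.197), and the ubc13A calls of SIR (0.214), AT3G23940 (0.273) and APS3 (0.0546). Leaving out 1 array gave 0 to 1 assembly genes in Col-0 and in CsUBC13-OE, and 2 to 4, 2 to 3 and 0 to 1 iron-sulfur protein genes in Col-0, CsUBC13-OE and ubc13A. By the cutoff of 0.1, same-numbered arrays were taken as pairs only in the Col-0 Fe response and in CsUBC13-OE against Col-0 without Fe. Whether a call lost under the block in the other comparisons was a weaker effect was not tested. No called value of a named gene changed sign under these alternatives. Signals near 0 have no stated limit of detection.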

Other observations

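The replicate 1 array had the highest SUFE2 signal in 6 of 6 groups. The same array number was highest in all 6 groups for 177 of 22746 probe sets (0.778%) with replicate 1, for 43 (0.189%) with replicate 2 and for 55 (0.242%) with replicate 3. The labels do not say what a replicate number shares. The residual SD of SUFE2 within groups was 0.31 on the log2 scale, against a median of 0.23 over all probe sets.

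After the values were seen, genes were also ranked by the correlation of their deviations from group means with those of SUFE2 over the 18 arrays. This ranking shared 0 of its top 10 genes with the 10 named as most like SUFE2. It was led by AT2G41380 (r = 0.915), AT1G06470 (0.910) and SDRB (0.889), a short-chain dehydrogenase. AT2G41380 had mean signals of 355.2 with Fe and 384.9 without in Col-0. For AT3G27880, the gene most like SUFE2 over all arrays, the r of deviations was 0.818, and for CCS it was 0.761.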
